A study of Mus musculus with 7 samples.

Results

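MHC class II genes and the cathepsin gene Ctss were followed through 7 RNA libraries of sorted mouse Paneth cells. The group holds 8 genes of the 52550 counted: H2-Aa, H2-Ab1, H2-Eb1, H2-DMa, H2-DMb1, Cd74 and Ciita as the 7 class II genes, chosen by family, and Ctss, chosen because it was higher after DSS in these same libraries. All 8 passed the filter on low counts, which left 17449 genes for the tests. The cells came from small intestinal crypts of C57BL/6J mice that all carried Lgr5-EGFP-IRES-CreERT2, an allele that places EGFP and an inducible Cre in the stem cell gene Lgr5. The 4 DSS libraries were from mice given 3% dextran sulfate sodium (DSS, a sugar polymer toxic to the gut lining) in the water bottle for 7 days and analysed 3 days after its withdrawal, and the 3 control libraries were from mice left on water. Water 1, water 2 and DSS 1 were from 12-week mice, and water 3, DSS 2, DSS 3 and DSS 4 were from 10-week mice. The sort kept live single cells by CD24 and side scatter and removed cells that stained for TER119, CD31 or CD45, the last of which marks white blood cells.

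MHC class II molecules are heterodimers of an alpha and a beta chain that show peptides to CD4 T cells. The invariant chain, encoded by Cd74, guides new dimers to endosomes and is then cut, with cathepsin S (Ctss) as the best known late protease of that step in antigen-presenting cells. H2-DM exchanges the remaining fragment for a peptide, and CIITA, encoded by Ciita, switches the whole set on at its promoters. The genes are best known from dendritic cells, macrophages and B cells, and gut epithelial cells can express them as well, above all under interferon-gamma.

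Class II promoters carry an X box and a Y box at a set distance, and 3 stretches are shown because the class II genes moved together between libraries while Ctss did not follow them. Whether these letters have a part in that pattern was not tested. RefSeq windows (GRCm38.p6, from 250 bases before to 50 after the start of transcription) were held for 5 of the 8 genes: H2-Aa, H2-Eb1, H2-DMa, H2-DMb1 and Ctss. H2-Ab1, Cd74 and Ciita had no window. The first stretch lies at chr17:34287855-34287917 on the minus strand, the second at chr17:34305763-34305824 on the plus strand and the third at chr3:95526741-95526797 on the plus strand. Capitals mark the X1-like core and the Y box (ATTGG) in the H2-Aa and H2-Eb1 stretches and the ISRE core, a site type of interferon-regulated genes, in the Ctss stretch.
H2-Aa: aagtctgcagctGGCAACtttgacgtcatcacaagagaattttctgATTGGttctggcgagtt
H2-Eb1: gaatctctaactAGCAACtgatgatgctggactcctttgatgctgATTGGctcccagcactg
Ctss: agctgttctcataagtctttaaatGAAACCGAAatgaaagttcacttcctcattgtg

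The motifs searched on both strands were the X1 box core AGCAAC, the Y box ATTGG, the ISRE core GAAANNGAA and the GAS core TTCNNNGAA. Of all 32851 promoter windows, 14.8% held AGCAAC, 37.4% ATTGG, 8.56% the ISRE core and 8.3% the GAS core. AGCAAC starting 15 to 35 bases before ATTGG on the same strand stood in 0.35% of windows, and of the members with a window H2-Eb1 held it, at 33 bases. In H2-Aa the 6 letters 34 bases before the Y box were GGCAAC, and in H2-DMb1 they were AGTAAC, also at 34 bases. The H2-DMb1 stretch lies within an annotated untranslated region of the gene. For H2-DMa the search found a Y box 198 bases before the start of transcription and no AGCAAC. That window, chr17:34125268-34125567, lies before the start of the gene as counted (34135182). The looser form NGNAAC at 33 or 34 bases before ATTGG, written after these windows had been seen, stood in 0.39% of windows. The Ctss window held 1 ISRE core, GAAACCGAA, 21 bases before the start of transcription, and no AGCAAC or ATTGG. These matches describe letters and not measured binding.

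The class II genes differed far more between libraries of 1 group than between DSS and water. H2-Aa, the alpha chain of the I-A molecule (chr17:34282744-34287827, minus strand, mm10), stood at 8.03, 30.6 and 8.18 TMM-normalised CPM (counts scaled to library size, corrected for composition) in water 1 to 3, and at 1.06, 21.9, 29.2 and 39.4 CPM in DSS 1 to 4. Water 2 lay with DSS 2 to 4, and DSS 1, which rested on 24 reads, lay below every other library. The highest library was 37.2-fold above the lowest. The group means were 15.6 ± 13.0 CPM for water (SD, n = 3) and 22.9 ± 16.2 CPM for DSS (SD, n = 4). The log2 change was 0.57 ± 0.83 (SE) with an adjusted p of 0.793 (edgeR quasi-likelihood test, Benjamini-Hochberg over all genes tested).

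**Figure D1:**
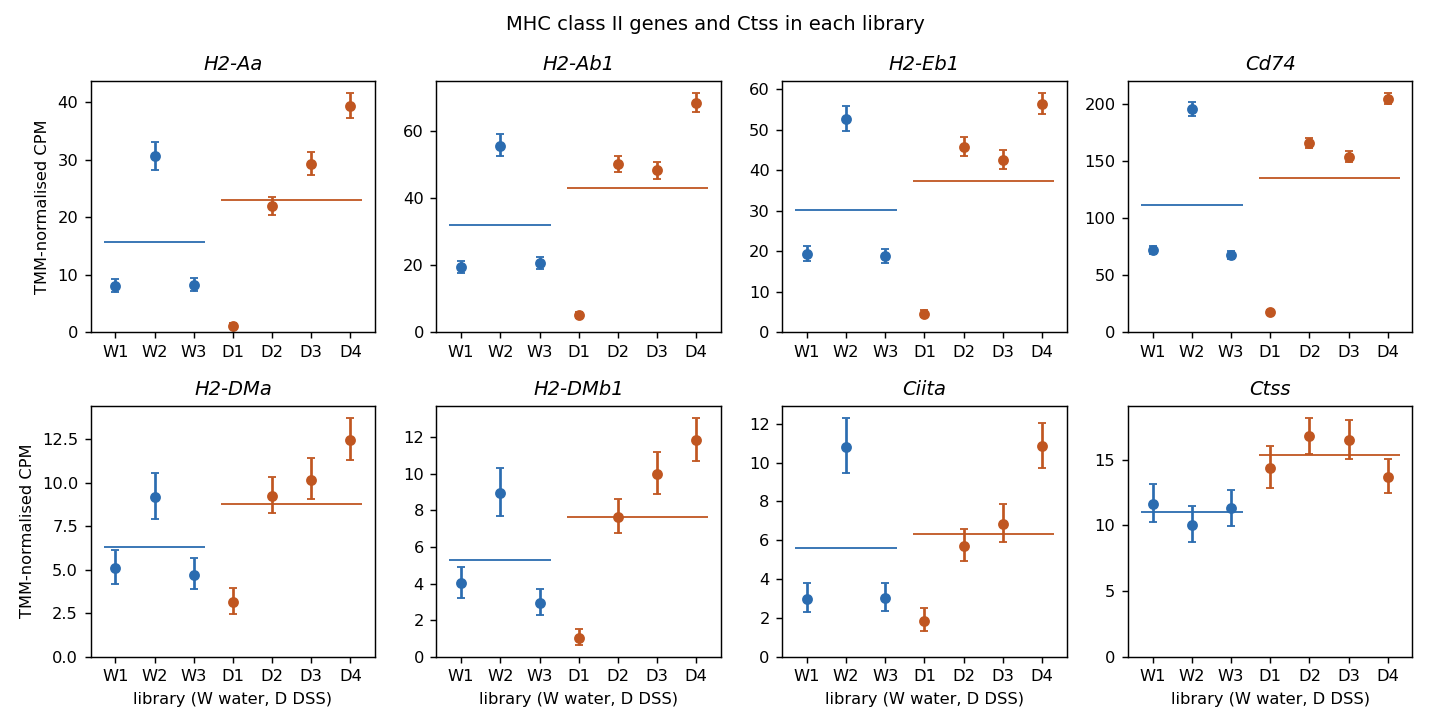
TMM-normalised CPM (linear axis from 0) of the 8 genes in each library, water in blue and DSS in orange. Whiskers are exact 95% Poisson intervals, which cover counting error only, and lines are group means. Each class II gene is lowest in DSS 1 and highest in DSS 4, while Ctss lies between 13.7 and 16.8 CPM in DSS and between 10.0 and 11.6 CPM in water.

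H2-Ab1, the I-A beta chain (chr17:34263209-34269418, plus strand), was at 19.4, 55.5 and 20.5 CPM in water 1 to 3 and at 5.11, 49.9, 48.2 and 68.3 CPM in DSS 1 to 4. H2-Eb1, the I-E beta chain (chr17:34305877-34316199, plus strand), was at 19.4, 52.8 and 18.7 CPM in water and at 4.54, 45.8, 42.6 and 56.5 CPM in DSS. Both repeated the pattern of H2-Aa, with 1 high library among the controls and 1 low library after DSS, so the groups overlapped over their whole range. The log2 changes were 0.44 ± 0.67 for H2-Ab1 and 0.31 ± 0.66 for H2-Eb1 (SE, edgeR adjusted p = 0.804 and 0.864).

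H2-DMa and H2-DMb1 encode the chains of the peptide exchange factor H2-DM and lie on the same chromosome (chr17:34135182-34139101 and chr17:34153072-34160230, both plus strand). H2-DMa was at 5.09, 9.18 and 4.70 CPM in water 1 to 3 and at 3.13, 9.25, 10.2 and 12.5 CPM in DSS 1 to 4. H2-DMb1 was at 4.02, 8.94 and 2.94 CPM in water and at 1.01, 7.66, 10.0 and 11.8 CPM in DSS. H2-DMa had the narrowest range of the class II genes, 3.99-fold from the lowest to the highest library, against 11.7-fold for H2-DMb1. Their log2 changes were 0.48 ± 0.41 and 0.55 ± 0.64 (SE, edgeR adjusted p = 0.621 and 0.733). Of the 50-base words in H2-DMb1 transcripts 22.7% also occur in H2-DMb2, so reads may be split between them, but H2-DMb2 stayed between 0.0882 and 0.729 CPM. Of the words of H2-DMa transcripts 8.43% are shared with the neighbouring gene Brd2.

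Ciita, the coactivator that the other class II genes depend on (chr16:10488178-10527564, plus strand), was low and followed the same order. It stood at 2.99, 10.8 and 3.02 CPM in water 1 to 3 and at 1.85, 5.71, 6.84 and 10.8 CPM in DSS 1 to 4. DSS 4 and water 2 were thus level, and DSS 1 was lowest. The log2 change was 0.19 ± 0.59 (SE, edgeR adjusted p = 0.912). Exons of Ciita share 111 bases with the antisense gene Dexi, and counting used no strand, so reads there cannot be told apart.

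Cd74, the invariant chain gene (chr18:60803848-60812646, plus strand), was the most abundant of the 8. It was at 71.7, 195.2 and 67.7 CPM in water 1 to 3 and at 17.3, 166.1, 153.8 and 204.7 CPM in DSS 1 to 4. The means were 112 ± 72.5 CPM for water (SD, n = 3) and 135 ± 81.7 CPM for DSS (SD, n = 4). The log2 change was 0.28 ± 0.67 (SE, edgeR adjusted p = 0.883). Its high and low libraries were those of the H2 genes, although it lies on another chromosome.

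Ctss (chr3:95526786-95556403, plus strand) did not follow the library order of the class II genes. It was at 11.6, 10.0 and 11.3 CPM in water 1 to 3 and at 14.4, 16.8, 16.5 and 13.7 CPM in DSS 1 to 4. All 4 DSS libraries were above all 3 water libraries, a pattern that 7.40% of all genes tested showed and for which Ctss had been selected. The means were 10.99 ± 0.840 CPM for water (SD, n = 3) and 15.3 ± 1.52 CPM for DSS (SD, n = 4). The fitted log2 difference was 0.48 ± 0.11 (SE), given as a description with no test. The highest library was 1.67-fold above the lowest. In DSS 1, where the class II genes were lowest, Ctss stood at 14.4 CPM, inside the range of the other DSS libraries.

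None of the 7 class II genes passed the test in either direction, adjusted over all genes or at an unadjusted p of 0.05. Over all 17449 genes edgeR called 0 (0%) at an adjusted p of 0.05 and 2742 (15.7%) at an unadjusted one, and DESeq2 called 642 of 13223 (4.86%) with no class II gene among them (adjusted p 0.738 to 0.952). All 7 estimates were above 0, with a median log2 change of 0.44 against -0.0015 for all genes tested. None of the 7 had all DSS libraries above all water libraries. Without DSS 1 the median was 0.76, and 0 of 7 passed over all genes, where 303 of 17319 genes (1.75%) passed in edgeR. At an unadjusted p 2 of 7 passed in that fit. The share of all genes at an unadjusted p was not counted there, so the 2 cannot be weighed. P-values measure the spread between these libraries, since the labels do not say outright that each came from a separate animal. In RNA from a sorted population, fewer cells that express a gene and less of its RNA per cell cannot be told apart.

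The 7 class II genes shared their pattern over libraries. DSS 1 was the lowest of all 7 libraries for 7 of 7 genes, and DSS 4 the highest for 7 of 7. Water 2 and DSS 2 to 4 each lay above water 1 and water 3 for 7 of 7. The share of all genes with these orders was not counted. As the mean log2 level of the 7 genes relative to the water mean, the libraries stood at -0.46, 0.99 and -0.54 in water 1 to 3 and at -2.19, 0.68, 0.81 and 1.23 in DSS 1 to 4. Ctss on the same scale stood at 0.09, -0.13 and 0.04 in water and at 0.39, 0.61, 0.58 and 0.32 in DSS. Water 2, the library with most class II RNA among the controls, had the least Ctss of all 7, and DSS 4, with most class II RNA, had the least Ctss of the DSS libraries.

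**Figure D2:**
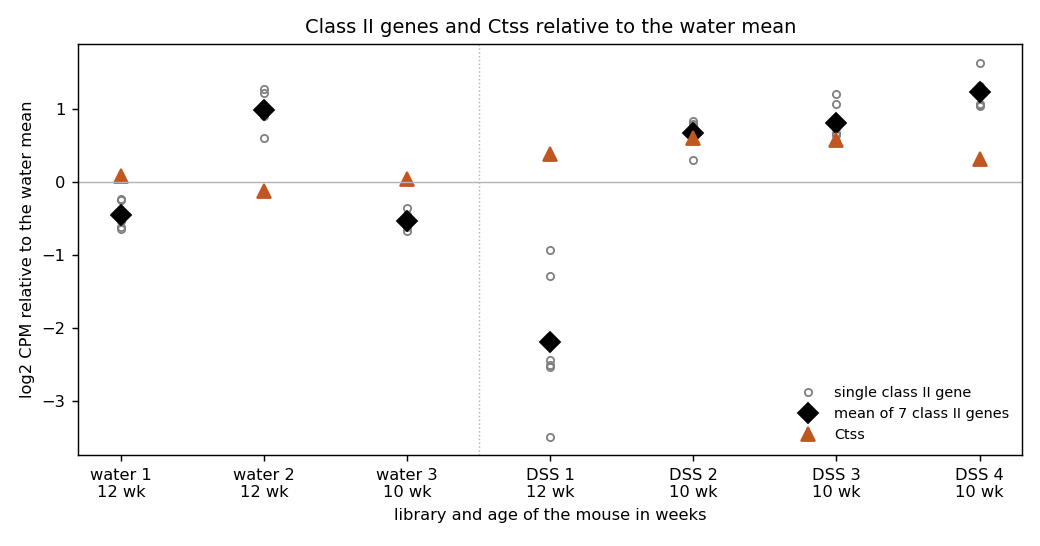
Log2 CPM relative to the mean of the water libraries for each class II gene (open circles), their mean (diamonds) and Ctss (triangles), by library with the age of the mouse. The class II mean runs from -2.19 in DSS 1 to 1.23 in DSS 4, and Ctss from -0.13 in water 2 to 0.61 in DSS 2.

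Levels can be compared between genes per length of exon (RPKM, the CPM divided by the exon length in kilobases). Over the 7 libraries Cd74 came first with 88.8 ± 51.4 RPKM (SD, n = 7), then H2-Eb1 with 28.98 ± 16.8 and H2-Ab1 with 23.3 ± 14.1. H2-Aa followed with 10.5 ± 7.60 RPKM, Ctss with 9.91 ± 1.91, H2-DMa with 4.70 ± 2.08, H2-DMb1 with 4.46 ± 2.71 and Ciita with 1.14 ± 0.706. H2-Eb1 and H2-Ab1, H2-Ab1 and H2-Aa, H2-Aa and Ctss, and H2-DMa and H2-DMb1 differed by less than the larger SD of the pair, and the other 3 pairs of neighbours differed by more. The SDs include the differences between libraries that the class II genes share, which a ratio within a library leaves out.

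The ratio of Cd74 to H2-Ab1 per length stayed between 3.48 and 4.30 in all 7 libraries while Cd74 spanned 11.8-fold and H2-Ab1 13.4-fold. The ratio of H2-Eb1 to H2-Ab1 stayed between 1.14 and 1.38, and that of H2-DMb1 to H2-Ab1 between 0.158 and 0.229. The other genes parted from H2-Ab1 in DSS 1. There H2-Aa stood at 0.181 of H2-Ab1, against 0.348 to 0.530 in the other 6 libraries, whereas H2-DMa stood at 0.611 of H2-Ab1, against 0.165 to 0.262. Ciita stood at 0.113 of H2-Ab1 in DSS 1, against 0.0356 to 0.0606 elsewhere. The ratio of Ctss to Cd74 was 0.863 in DSS 1 and 0.0534 to 0.173 in the others, a 16.2-fold range.

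Among the 4 DSS libraries the spread of the class II genes was among the widest of all genes. The SD of log2 CPM was 2.37 for H2-Aa, with 4 of 17449 genes spread wider, 1.72 for H2-Ab1 (24 wider), 1.70 for H2-Eb1 (27), 1.67 for Cd74 (29) and 1.60 for H2-DMb1 (32). Ciita had an SD of 1.06 (125 wider) and H2-DMa of 0.883 (238 wider). The median of all genes was 0.157, and Ctss lay near it at 0.143. These spreads rested on DSS 1: without it the SDs of the class II genes were 0.211 to 0.472, against a median of 0.148 for all genes. Among the water libraries the class II SDs were 0.522 to 1.10, against a median of 0.131, and here water 2 was the library apart, since water 1 and water 3 differed by 0.014 to 0.442 log2 units.

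**Figure D3:**
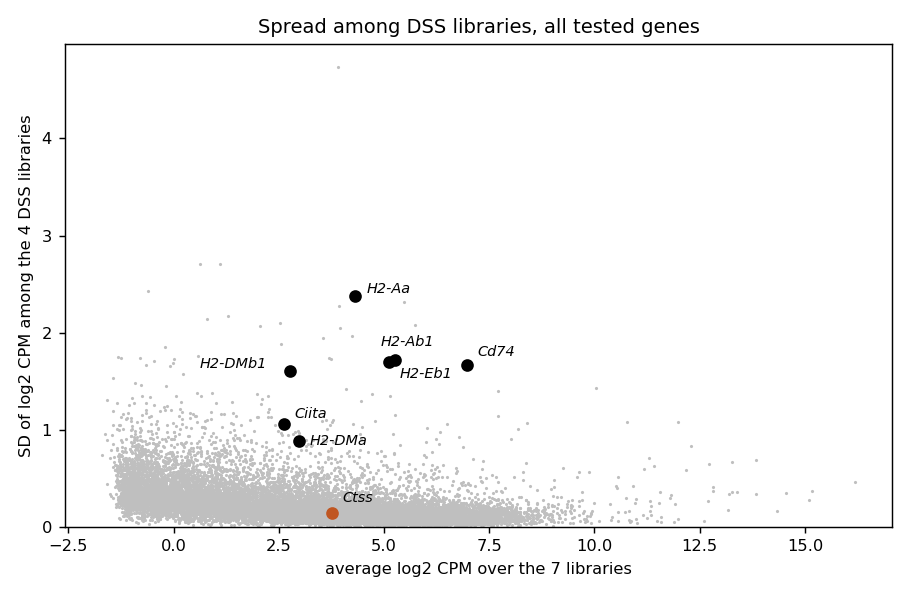
SD of log2 CPM among the 4 DSS libraries against the average log2 CPM over all 7, for each of 17449 genes (grey), the class II genes (black) and Ctss (orange). H2-Aa is at 2.37 and Ctss at 0.143.

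The class II genes differed from water in opposite directions at the 2 ages. In 10-week mice (water 3 against DSS 2 to 4) the DSS mean was above water for all 7 genes, by 1.18 for H2-DMa to 1.88 for H2-Aa on the log2 scale. In 12-week mice (water 1 and water 2 against DSS 1) it was below water for all 7, at -1.19 for H2-DMa to -4.19 for H2-Aa. Ctss was higher by 0.47 at 10 weeks and by 0.41 at 12 weeks, a direction that its selection had fixed. An interaction of age with treatment, added after the split had been seen and fitted with 3 residual degrees of freedom, gave log2 differences of -2.36 to -6.06 for the class II genes. Their unadjusted edgeR p-values were 0.000811 to 0.0211, under 0.05 for 7 of 7 genes against 3.13% of all genes, and 0 of 7 passed over all genes (edgeR adjusted p = 0.999966 for each, with 0% of all genes called). The split had been seen first, and the 12-week DSS group is DSS 1 alone, already lowest for all 7 genes, so these p-values add no independent evidence. Each age has 1 library in 1 of its groups, and DSS 1 also had the earliest RNA isolation day, November 9, so age, day and single library cannot be told apart.

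Libraries that share a day or a lane are given here side by side. Water 1 and water 2 were isolated on the same day, November 14, from mice of the same age and in the same lane, and their class II means lay at -0.46 and 0.99. DSS 2 and DSS 3 were both isolated on November 16 from 10-week mice and lay at 0.68 and 0.81. DSS 1 and DSS 3 were both named for lane 8 and lay at -2.19 and 0.81, and DSS 2 was named as merged, with no lane given. Water libraries were isolated on November 14 and 21 and DSS libraries on November 9, 16 and 24, so no day held both groups. Day and treatment cannot be told apart. DSS 4 was the only DSS library named for lane 6, and it stood above the 3 water libraries for 7 of 7 class II genes. For Ciita this was 10.84 against 10.81 CPM in water 2. The 95% Poisson intervals of DSS 4 and water 2 overlapped for Ciita, H2-Eb1 and Cd74. The share of all genes placed in that way was not counted. The class II median log2 change within lane 6 was 0.98. The libraries held 23175708 to 32451653 counts, and 3 counts equal 0.0884 to 0.144 CPM, so the levels in DSS 1 were low but counted. The part of day and lane in the class II levels was not tested.

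The rest of the class II machinery was described from lists of known genes. Since edgeR called 0 of 17449 genes (0%) at an adjusted p of 0.05, no list could hold a gene that passed. Of 4 other class II genes, H2-DMb2 alone was tested, at 0.223, 0.673 and 0.210 CPM in water and 0.0882, 0.677, 0.550 and 0.729 CPM in DSS, the same libraries being high and low. H2-Oa, H2-Ob and H2-Eb2 had at most 0.0687 CPM in any library. The factors that bind class II promoters with CIITA differed little in their mean: 7 of 7 were tested, their median log2 change was 0.03 and their mean log2 level lay between -0.08 and 0.01 in every library. Rfxap, an RFX subunit that binds the X box, was at 18.2 ± 1.28 CPM (SD, n = 3) in water against 18.6 ± 1.38 CPM (SD, n = 4) after DSS, and Nfya, of the Y box factor NF-Y, at 42.5 ± 3.58 and 43.4 ± 4.11 CPM. Single factors varied more: Nfyb, also of NF-Y, was at 49.3, 62.3 and 54.2 CPM in water and 54.0, 53.4, 45.5 and 39.7 CPM in DSS, a log2 change of -0.20 ± 0.12 (SE, edgeR adjusted p = 0.466). Creb1, which also binds the X box region, ran from 66.8 to 84.9 CPM.

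Genes that supply and trim peptides and the invariant chain did not share the class II pattern. Of 11 listed, 10 were tested, 3 estimates lay above 0 and the median log2 change was -0.04. Sppl2a, the intramembrane protease that clears the last invariant chain fragment, was at 273.8, 284.1 and 281.2 CPM in water and 241.4, 224.7, 187.4 and 203.6 CPM in DSS, a log2 change of -0.38 ± 0.09 (SE, edgeR adjusted p = 0.139). All its DSS values were under all its water values, as for 1311 of all 17449 genes tested. Ifi30, also on the list, lay the other way, with all DSS values above all water values, as for 7.40% of all genes. Its log2 change was 0.23 ± 0.07 (SE, edgeR adjusted p = 0.200). The other cathepsins had a median log2 change of -0.03, and of 9 tested 3 estimates were above 0. Ctsb was at 211 ± 5.24 CPM (SD, n = 3) in water against 205 ± 10.5 CPM (SD, n = 4) after DSS. Ctsl differed more, at 28.5 ± 4.57 CPM in water against 23.4 ± 1.12 CPM after DSS (SD). Its log2 change was -0.28 ± 0.10 (SE, edgeR adjusted p = 0.251).

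Interferon-gamma signalling genes differed little in their mean. Of 9 tested, 5 estimates lay above 0, with a median of 0.02, and mean levels per library were between -0.05 and 0.10. Ifngr1, a chain of the interferon-gamma receptor, stood at 58.4, 56.5 and 54.1 CPM in water and 60.5, 62.4, 66.3 and 63.5 CPM in DSS, a log2 change of 0.17 ± 0.06 (SE, edgeR adjusted p = 0.230). Its DSS values were all above its water values, as for 7.40% of all genes tested, in an order that did not match that of the class II genes. Jak1, a kinase of the same receptor, lay the other way at 159.2, 145.5 and 157.0 CPM in water and 138.2, 132.4, 119.2 and 124.9 CPM in DSS, a log2 change of -0.26 ± 0.07 (SE, edgeR adjusted p = 0.167). The GTPases and chemokines that interferon-gamma induces were uneven: 13 of 18 were tested, 1 estimate lay above 0 and the median was -0.45. Their mean log2 level was lowest in DSS 1 (-0.93) and highest in water 2 (0.76), while DSS 2 and DSS 3 lay at -0.43 each, where the class II genes were high. Irgm2, one of these GTPases, was at 4.46, 8.70 and 6.21 CPM in water and 3.97, 7.42, 6.11 and 7.65 CPM in DSS.

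Class I genes, which present peptides to CD8 T cells, spanned a smaller range, with the same libraries high by mean log2 level but not by summed CPM. All 16 were tested, 9 estimates lay above 0 and the median was 0.09. Water 1 to 3 had mean log2 levels of -0.19, 0.22 and -0.03, and DSS 1 to 4 of -0.15, 0.16, 0.15 and 0.26, so water 2 and DSS 2 to 4 were above the other 3 libraries. The lowest was water 1 and not DSS 1. By summed CPM DSS 1 was lowest (2291), but DSS 2 (2590) and DSS 3 (2521) lay below water 1 (2704) and water 3 (2664). H2-K1, a class I heavy chain, was at 354 ± 40.7 CPM (SD, n = 3) in water against 353 ± 42.2 CPM (SD, n = 4) after DSS. H2-D1, Psmb8 and Nlrc5 were singled out after their values were seen. H2-D1, another heavy chain, stood at 191.5, 262.3 and 196.0 CPM in water and 188.6, 251.3, 245.2 and 236.6 CPM in DSS. Psmb8, an immunoproteasome subunit, stood at 11.5, 19.3 and 15.7 CPM in water and 12.7, 20.6, 22.2 and 25.1 CPM in DSS. Nlrc5, the coactivator of class I genes related to CIITA, stood at 0.714, 4.95 and 1.17 CPM in water and 0.926, 3.45, 3.98 and 4.98 CPM in DSS, with water 2 and DSS 2 to 4 high. Genes of co-stimulatory and checkpoint ligands were mostly scarce: 4 of 10 were tested, Cd86 had 0 counts in all libraries, and Cd276 was the most abundant at 15.8 to 20.4 CPM.

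**Figure D4:**
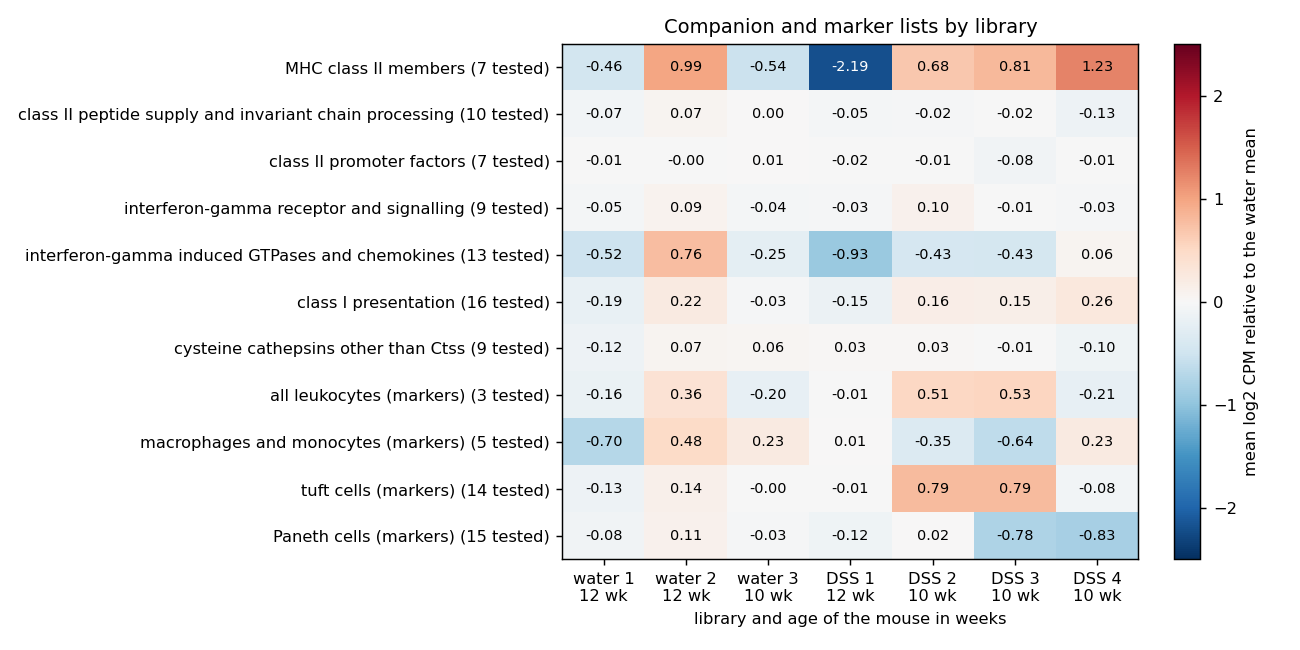
Mean log2 CPM of the tested genes of each list relative to the water mean (colour and number), by library with the age of the mouse. The class II row spans -2.19 to 1.23, and the rows of promoter factors and of interferon-gamma signalling stay between -0.08 and 0.10.

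Markers of B cells and dendritic cells were near 0, and 14 of 15 markers of T cells and innate lymphocytes were under 1 CPM. The sum of macrophage markers was not near 0. B and plasma cell markers summed to 1.39 to 2.64 CPM in water and 0.705 to 1.43 CPM in DSS over 12 genes, with Blk at 0 in all libraries and none passing the low-count filter. Dendritic cell markers summed to 0.419 to 0.625 CPM in water and 0.618 to 0.838 CPM in DSS over 10 genes, all under 1 CPM in every library. Markers of T cells and innate lymphocytes summed to 13.4 to 17.4 CPM in water and 13.8 to 17.1 CPM in DSS over 15 genes. Of these, 1 was tested and 14 stayed under 1 CPM in every library, so the sum says little of the list as a whole. Cd3g, Nkg7, Gzmb and Ifng, the last encoding interferon-gamma itself, had 0 counts in all libraries, which limits each to 3 counts a library.

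Macrophage markers summed to 16.9 to 18.6 CPM in water and 17.6 to 20.5 CPM in DSS over 12 genes, of which 5 were tested and 8 stayed under 1 CPM in every library. Mertk, at 9.18 to 13.4 CPM, and Cd14, at 2.51 to 6.15 CPM, made up most of that sum. C1qa, a complement gene of macrophages, was at 0, 1.83 and 0.713 CPM in water and 0.264, 0.0295, 0 and 0.607 CPM in DSS, with water 2 highest. Its part in the class II level of water 2 was not tested.

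White blood cell markers summed to 67.9 to 90.7 CPM in water and 72.2 to 97.3 CPM in DSS over 9 genes. Of these, 3 were tested and 6 stayed under 1 CPM in every library, with Cd53 and Tyrobp at 0 in all libraries. Ptprc, which encodes the CD45 that the sort removed, stood at 9.24, 13.5 and 8.10 CPM in water and 10.2, 16.4, 16.8 and 7.86 CPM in DSS. Rac2, a GTPase of blood cells, stood at 9.50, 17.4 and 11.1 CPM in water and 10.05, 19.1, 25.0 and 9.96 CPM in DSS. Beside Ptprc and Rac2, a single other listed gene made up most of the rest of the sum in every library, so the sum largely follows that gene. By that sum DSS 1, lowest in class II RNA, stood at 83.8 CPM, above water 1 (72.9), water 3 (67.9) and DSS 4 (72.2). For Ptprc (10.2 CPM) and Rac2 (10.05 CPM), however, DSS 1 lay below water 2, DSS 2 and DSS 3. The mean log2 level of the 3 tested genes was 0.36 in water 2, 0.51 in DSS 2 and 0.53 in DSS 3, and -0.21 to -0.01 in the other 4 libraries. Water 2, DSS 2 and DSS 3 are also high in class II RNA, whereas DSS 4, with the most class II RNA, was the lowest for Ptprc. The part of white blood cells in the class II levels was not tested.

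Tuft cell markers, of a rare chemosensory cell type that also carries CD24, summed to 718 to 812 CPM in water and to 731.6, 1353, 1359 and 691 CPM in DSS 1 to 4. Ctss was highest in the same pair, DSS 2 and DSS 3, which also shared an isolation day, and its relation to tuft cell RNA was not tested. In DSS 4 and water 2, where the class II genes were highest, the tuft markers stood at 691 and 812 CPM.

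Paneth cell markers were abundant in every library, summing to 255105 to 280635 CPM in water and to 128133 to 221189 CPM in DSS over 15 genes. By that sum DSS 1, lowest in class II RNA, held the most of them among the DSS libraries, and water 2, high in class II RNA, the most of all. By mean log2 level DSS 2 (0.02) lay above DSS 1 (-0.12). Stem cell markers summed to 4742 to 5630 CPM in water and 4554 to 5617 CPM in DSS, with Olfm4 the most abundant at 2244 to 2911 CPM. Enterocyte markers ran from 1508 CPM in DSS 4 to 4050 CPM in DSS 2, and goblet cell markers from 5360 CPM in DSS 3 to 10054 CPM in DSS 4. Enteroendocrine markers were at 74.2 CPM in water 1 and 565 to 2790 CPM elsewhere. The part of these cell types in the class II levels was not tested.

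Among 9120 genes whose average log2 CPM was 3 or more, those closest to the class II mean over the 7 libraries were Ceacam10, Pxdn, St6galnac6, Cd177 and Hsd11b2. Likeness was the root mean square difference of centred log2 CPM, which was 0.667 for Ceacam10 and 0.810 for Hsd11b2, against 0.120 to 0.550 for the class II genes themselves and a class II range of 3.42. The class II genes help to form that mean, and lower genes such as H2-DMb2 were not among those compared. Ceacam10, of the carcinoembryonic antigen family, stood at 23.3, 34.8 and 23.9 CPM in water and 5.47, 22.97, 17.2 and 26.7 CPM in DSS, so DSS 1 was again lowest. Closest to Ctss were Krt19, Mex3a, Efna4, Sfn and Aprt, with differences of 0.0453 to 0.0719 over a range of 0.734. Krt19, a keratin of simple epithelia, was at 283.9, 263.8 and 283.5 CPM in water and 349.6, 425.6, 436.3 and 340.0 CPM in DSS, with DSS 2 and DSS 3 highest as for Ctss.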

How the data were processed

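Polyadenylated RNA of sorted Paneth cells was sequenced in 7 libraries (3 water, 4 DSS). The values deposited by the authors are raw counts for each gene, counted by featureCounts 1.5.3, per the file headers, over exons by gene of GENCODE M15, with primary alignments, an overlap fraction of 0.8 and no strand option. STAR 2.5.3a, the build mm10, featureCounts 1.5.2 and DESeq2 are listed in the submitters' processing notes. Symbols from GENCODE M21 matched 52403 of 52550 genes.

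From these counts, edgeR 4.0.16 in R 4.3.3 (filterByExpr, TMM factors, quasi-likelihood, Benjamini-Hochberg at 0.05, no covariate) compared DSS with water over 17449 genes. Log2 values use a prior count of 2. TMM factors were 0.899 to 0.922 in water and 0.980 to 1.14 in DSS. RPKM uses the exon length in the files, and intervals and floors cover counting error only. DESeq2 1.42.0, limma 3.58.1 with voom quality weights, other size factors and filters, age, lane and each library left out were alternatives. The fit was tested on simulated data. No library pair matched within sampling noise. Replicate numbers follow accession order and pair nothing.

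The 8 genes and the 20 companion lists were chosen with earlier results of these data known. All 8 were named, with up to 4 genes of each list by mean CPM, marker genes at 0 in all libraries, and the 5 genes most like the class II mean and Ctss. Predicted, unnamed and pseudogenes were left out of the latter. Nlrc5, H2-D1, Psmb8, Cd86, Brd2, Dexi, Ctsl and Ifi30 are named beyond that rule. Promoter sequences are from RefSeq.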

Additional observations from a re-analysis of the deposited data

Results flagged for a closer look

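Among the 4 DSS libraries, DSS 1 lay apart from the others below them, by the ratio of its gap to the whole range of log2 CPM, for H2-Aa (0.835), H2-Ab1 (0.865), H2-Eb1 (0.887), Cd74 (0.884) and the class II mean level (0.838). The list of other class II genes, which is H2-DMb2 alone, gave 0.842 for the same library. For the class II promoter factors it was DSS 3 that lay apart (0.840), over a range of under 0.1 log2 units. Each ratio is above Dixon's 95% limit for 4 samples. Of 28 series examined 7 passed it, where chance passes about 5% of series not seen before. The class II series are not independent of each other, and their spread was known from earlier results of these data. Their ratios thus describe DSS 1 and add no evidence that it lies apart.

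The class II mean log2 level, DSS minus water, was 1.44 in 10-week mice (1 water and 3 DSS libraries) and -2.46 in 12-week mice (2 water and 1 DSS library), with every DSS library on the stated side of every water library of its age. The difference between ages in this mean was not tested as such. Its genes were tested one by one in the interaction fit, where 0 of 7 passed over all genes.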

How the results depend on the processing

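No class II gene passed under any of 17 alternatives, and Ctss, whose direction its selection fixed, ran from 0.31 with lane 6 libraries only to 0.71 with library totals only. The class II median, 0.44, was 1.37 in 10-week mice only, 0.98 in lane 6 libraries only and 0.22 in limma-voom. Library totals shifted the median of all genes to 0.23, against 0.72 for the class II median. The class II median was reversed to -0.44 with age as a covariate (H2-Aa -0.46, H2-Ab1 -0.44, H2-Eb1 -0.52, H2-DMb1 -0.12, Cd74 -0.64, Ciita -0.11) and to -2.88 in 12-week mice only, an alternative added after seeing the data (H2-Aa -4.19, H2-Ab1 -2.88, H2-Eb1 -3.00, H2-DMa -1.19, H2-DMb1 -2.68, Cd74 -2.96, Ciita -1.90). Cd74 was at -0.033 in limma-voom. Leaving out 1 library gave a class II median of 0.13 (without DSS 4) to 1.08 (without water 2), Ciita at -0.20 (without DSS 4) to 1.08, being also -0.11 without water 1 or water 3, and Ctss at 0.42 to 0.53. Without DSS 1 the class II median was 0.76 with 0 of 7 passing, against 303 of 17319 genes (1.75%).

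Over all genes, those higher and lower in DSS numbered 2107 and 28 with library totals only, 346 and 296 in DESeq2, 240 and 201 without a low-count filter, 3 and 6 in lane 6 libraries only, and 2 and 0 in 12-week mice only. With 1 library left out they ran from 0 to 168 and from 0 to 135, both highest without DSS 1. The cause of these differences was not tested. No paired analysis was possible because replicate numbers follow accession order. Water 3, DSS 2 and DSS 3 carry a common number in their titles, but what it stands for is not explained in the labels, so it was not used to link libraries.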
